A study of Mus musculus with 8 samples.

Results

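The genes described here are the MYC family and the partners that share its dimerization network: Myc, Mycn, Mycl, Max, Mxd1, Mxd3, Mxd4, Mxi1, Mnt and Mga. They were chosen by symbol as the listed members of the network, and all 10 were found, each on a single row, among 17812 gene identifiers. Total RNA of mouse E14TG2a embryonic stem cells, a line from strain 129/Ola taken at passages 3 to 6, had been sequenced from unedited cells (WT) and from 3 enhancer knockouts made with CRISPR/Cas9 (E1-KO, E2-KO and E3-KO), with 2 biological replicates per group and 8 samples in all. Every group was grown on gelatin without feeder cells, in serum with LIF, the GSK3b inhibitor CHIR99021 and the MEK inhibitor PD0325901. The labels name neither the positions of the deleted enhancers nor how many clones each knockout stands for, and they hold no edited cells with an intact enhancer. A difference from WT can therefore not be told apart from a difference between clones or cultures, and p-values measure only the spread between these samples.

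MYC, MYCN and MYCL are basic helix-loop-helix leucine zipper proteins that bind DNA as dimers with MAX, at the E-box CACGTG, and raise the transcription of genes for ribosome production, nucleotide supply and growth. The MXD proteins (MXD1, MXD3, MXD4 and MXI1) and MNT compete for the same partner and sites, and bring SIN3 corepressors. MGA, a very large protein with a T-box and a helix-loop-helix domain, pairs with MAX inside a variant polycomb complex that keeps germline genes silent in embryonic stem cells. In these cells Myc and Mycn act together in self-renewal and growth, and Myc transcripts are known to be low under GSK3 and MEK inhibition.

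Promoter sequences from RefSeq (GRCm38.p6, from 250 bases before to 50 bases after the start of the gene) were matched by symbol for 9 of the 10 genes; Myc had no entry. The submitters' processing notes name mm9, so these coordinates belong to RefSeq and not to the deposited values. The windows below, read 5′ to 3′ on the strand of the gene, are those of the 5 genes other than Myc that passed the test in at least 2 of the 6 comparisons between groups. Capitals mark the E-box CACGTG, which is its own reverse complement, and its variant CACGCG on either strand.
Mycn (chr12:12941787-12942086, minus strand): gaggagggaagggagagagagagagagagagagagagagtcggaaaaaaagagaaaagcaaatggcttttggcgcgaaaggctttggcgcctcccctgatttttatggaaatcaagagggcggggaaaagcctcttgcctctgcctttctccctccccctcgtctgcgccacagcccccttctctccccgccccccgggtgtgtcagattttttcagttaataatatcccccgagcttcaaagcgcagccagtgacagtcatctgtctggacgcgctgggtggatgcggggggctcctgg
Max (chr12:76962199-76962498, minus strand): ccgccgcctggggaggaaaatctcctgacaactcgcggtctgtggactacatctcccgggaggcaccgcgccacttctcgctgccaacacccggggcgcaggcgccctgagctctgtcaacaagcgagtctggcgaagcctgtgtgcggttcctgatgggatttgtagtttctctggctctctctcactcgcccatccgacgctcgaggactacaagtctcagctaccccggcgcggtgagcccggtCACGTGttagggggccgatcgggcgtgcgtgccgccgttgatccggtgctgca
Mxd1 (chr6:86669110-86669409, minus strand): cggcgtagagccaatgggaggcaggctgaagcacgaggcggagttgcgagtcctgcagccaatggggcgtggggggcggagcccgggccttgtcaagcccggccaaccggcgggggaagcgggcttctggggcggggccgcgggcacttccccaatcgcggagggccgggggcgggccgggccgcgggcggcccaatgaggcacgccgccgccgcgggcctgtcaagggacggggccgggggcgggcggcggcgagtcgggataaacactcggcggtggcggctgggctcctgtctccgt
Mnt (chr11:74830674-74830973, plus strand): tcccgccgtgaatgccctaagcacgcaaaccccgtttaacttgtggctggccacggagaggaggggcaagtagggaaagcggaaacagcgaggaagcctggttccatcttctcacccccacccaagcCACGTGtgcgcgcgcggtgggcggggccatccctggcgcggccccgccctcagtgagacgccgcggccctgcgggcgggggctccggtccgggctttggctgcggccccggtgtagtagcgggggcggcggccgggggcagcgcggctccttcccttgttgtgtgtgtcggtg
Mga (chr2:119896978-119897277, plus strand): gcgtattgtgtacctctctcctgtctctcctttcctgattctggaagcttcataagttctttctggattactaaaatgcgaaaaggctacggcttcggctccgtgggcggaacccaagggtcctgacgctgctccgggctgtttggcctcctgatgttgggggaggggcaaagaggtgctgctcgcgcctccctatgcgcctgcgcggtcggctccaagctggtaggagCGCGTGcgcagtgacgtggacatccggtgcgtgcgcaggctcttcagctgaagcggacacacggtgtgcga

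The E-box stood across the RefSeq start of Max, and also in the windows of Mnt and Mxd4, which made 3 of the 9 genes. The end of the Max window was found in no GENCODE transcript of that gene, unlike the ends of the other windows, so its start rests on RefSeq alone. Over all 32851 windows of the table, 7.15% held CACGTG. The variant CACGCG was found for Mga and Mycl, against 9.27% of all windows. The sequence CATTGT, which SOX proteins can bind, stood only in the window of Mycl among these 9 genes (as ACAATG), against 12.6% of all windows. These are matches of letters in short windows and were not measured as binding sites.

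Levels are given in FPKM, fragments scaled to transcript length and to the total of fragments, which can be compared between genes. The unit was taken from the tool named in the processing notes (Cufflinks) and from the values, since no header states it. Absolute depth is unknown, and steps between low values gave relative depths from 0.785 to 1.011 of that of WT replicate 1. Between 11078 and 11265 genes reached 1 FPKM, and replicates of a group correlated at 0.985 to 0.994 across the tested genes, which are not independent replicates. Sox2, the gene of the study's stated interest, stood at 130.5 and 136.3 FPKM in WT, at 58.03 and 60.27 in E1-KO, at 113.6 and 97.51 in E2-KO and at 97.74 and 90.96 in E3-KO. The summed level of 6 markers of pluripotent cells was 1390 to 1440 FPKM in WT, and 1590 to 1640, 1710 to 1890 and 1400 to 1500 FPKM in E1-KO, E2-KO and E3-KO. The 6 did not all move the same way. Mean Esrrb was 235.1 FPKM in WT, and lower at 187.4, 199 and 151.7 FPKM in E1-KO, E2-KO and E3-KO. Mean Utf1 was 51.3 FPKM in WT, and higher at 121.9, 113.8 and 82.28 FPKM. The 6 fibroblast markers summed to 1.27 to 1.66 FPKM in WT, and to 5.94 to 9.68, 3.39 to 3.5 and 3.71 to 3.97 FPKM in the knockouts in the same order. Only 2 of the 6, Acta2 and Thy1, averaged 1 FPKM or more over the 8 samples. Acta2 was at 0.122 and 0.127 FPKM in WT and at 6.19 and 2.42 FPKM in E1-KO. Its means in E2-KO, E3-KO and WT were 0.811, 0.2268 and 0.1245 FPKM, so it reached 1 FPKM only through E1-KO and had to be high there. Thy1 was at 0.84 and 0.695 FPKM in WT and at 2.54 and 2.69 FPKM in E1-KO. Col3a1 was listed at 0 in WT, Postn in E1-KO, and both Col1a2 and Col3a1 in E2-KO. For the 4 neuroectoderm markers found of 5 listed, the sums were 5.54 to 6.45, 9.79 to 11.9, 8.73 to 9.05 and 11.5 to 12.1 FPKM for WT and the knockouts, with Neurog2 listed at 0 in WT, E1-KO and E2-KO. The 5 trophectoderm markers summed to 6.76 to 6.98, 6.74 to 9.25, 5.9 to 8.17 and 10.1 to 13.1 FPKM. Primitive endoderm markers (3 found of 5 listed) summed to 1.55 to 1.58, 0.642 to 0.666, 0.853 to 1.1 and 2.38 to 4.61 FPKM, and the 5 mesoderm markers to 2.78 to 3.12, 2.18 to 2.51, 1.95 to 2.41 and 2.24 to 3.19 FPKM. The part of such cells in the changes of the MYC network was not tested, and in bulk RNA fewer cells of a type and less RNA per cell cannot be told apart.

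Differences are given in log2(FPKM + 1), a scale that makes changes of low genes look smaller, and come from a single limma-trend fit of the 11272 genes that averaged 1 FPKM or more. A gene was called at a two-sided Benjamini-Hochberg adjusted p under 0.05 over all tested genes. The 3 comparisons with WT share the WT samples. All 10 members were tested. A test of any difference among the 4 groups called 7 of the 10, against 54.5% of all tested genes. Of the 7, Mxd4 was tested only because of its level in E3-KO. The 3 that it did not call were Mycl (adjusted p = 0.053 by limma-trend), Mxi1 and Mxd3.

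**Figure D1:**
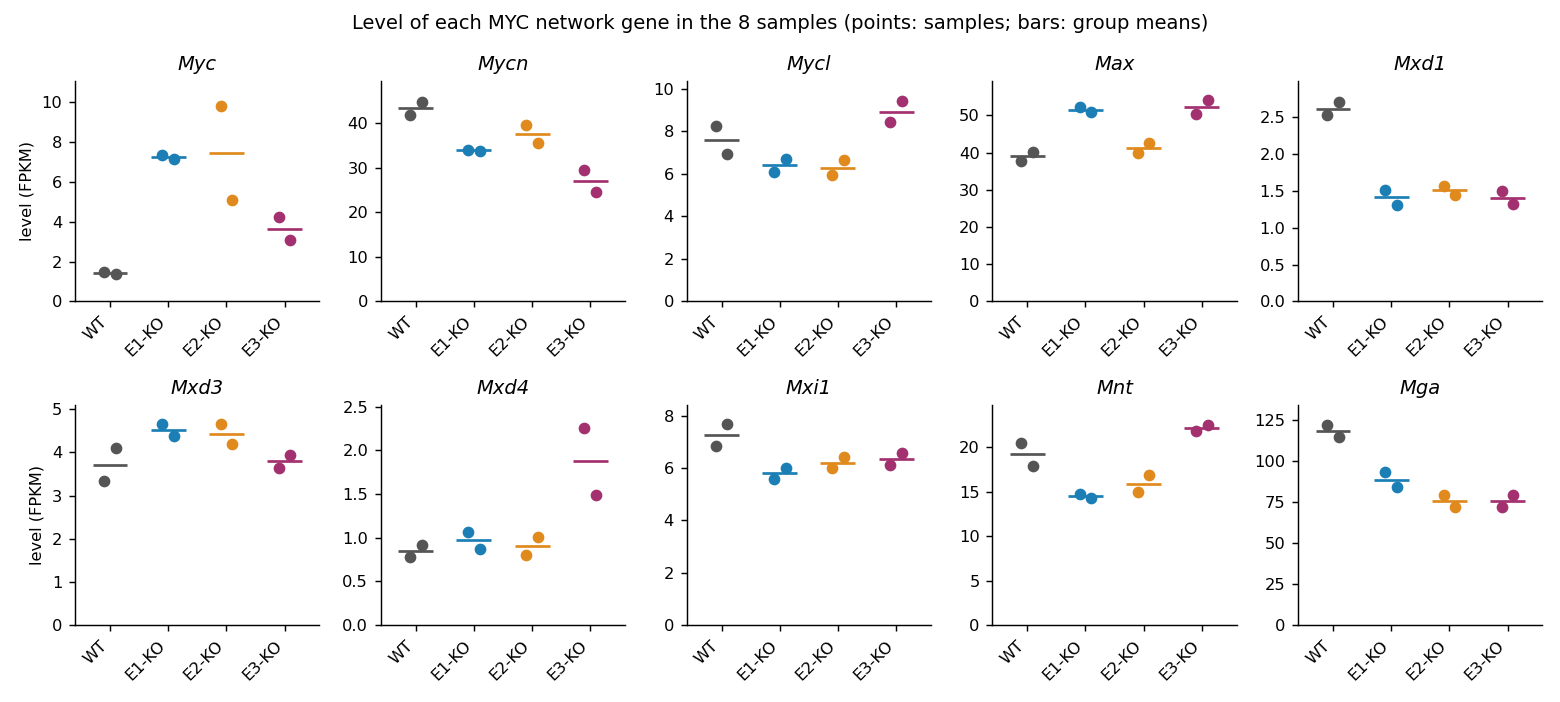
Level in FPKM (y axis, from 0) of each of the 10 MYC network genes in WT, E1-KO, E2-KO and E3-KO. Points are the 2 replicates of a group and bars the group means. Myc is the only one of the 10 with all 6 knockout samples above both WT samples, whereas Mga, Mycn, Mxd1 and Mxi1 have all 6 below; of all tested genes 15.3% have all 6 above and 28.5% all 6 below.

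Myc showed the largest difference from WT of the 10 genes in every knockout. It was at 1.46 and 1.37 FPKM in WT, at 7.35 and 7.13 in E1-KO, at 9.81 and 5.11 in E2-KO and at 4.22 and 3.08 in E3-KO. All 6 knockout samples lay above both WT samples, and the pair of E2-KO replicates spread widely. The ratios of the E1-KO, E2-KO and E3-KO means to the WT mean were 5.12, 5.28 and 2.58. On the log2 scale Myc rose by 1.77 in E1-KO (standard error 0.24, limma-trend adjusted p = 0.00095), by 1.75 with E2 deleted (0.00107) and by 0.94 with E3 deleted (0.0131). Ordered from the largest rise, it ranked 46, 44 and 389 of the 11272 tested genes in the 3 knockouts. Leaving out any 1 library kept the calls in E1-KO (1.743 to 1.799) and E2-KO (1.341 to 2.163). In E3-KO the call was lost without E3-KO replicate 1 (0.757, limma-trend adjusted p = 0.0768), WT replicate 1 (0.963, 0.0535) or WT replicate 2 (0.908, 0.0686).

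The rise of Myc was smaller in E3-KO than in E1-KO, with a direct difference of -0.84 (standard error 0.24, limma-trend adjusted p = 0.0341). Both E3-KO samples were below both E1-KO samples. The call was lost without any 1 of the 6 libraries of E1-KO, E3-KO or WT (adjusted p 0.0508 to 0.149, differences -1.014 to -0.657) and with all genes above 0 tested (0.0852). Against E2-KO the difference was -0.82 and did not pass (limma-trend adjusted p = 0.0527), and E2-KO and E1-KO differed by -0.02, with a 95% confidence interval from -0.57 to 0.531. Without E2-KO replicate 2 that last difference was 0.392, and without E2-KO replicate 1 it was -0.43.

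Mycn, the most abundant of the 3 MYC genes, went the other way. It was at 41.8 and 44.8 FPKM in WT, at 34.1 and 33.8 in E1-KO, at 39.6 and 35.6 in E2-KO and at 29.6 and 24.5 in E3-KO. Every knockout sample lay below the WT pair, and E3-KO was lowest. Mycn fell by 0.67 in E3-KO (standard error 0.11, limma-trend adjusted p = 0.002), a call that every left-out library kept (-0.795 to -0.535). In E1-KO it fell by 0.34 (limma-trend adjusted p = 0.0424), which was lost without any 1 library of E1-KO or WT (0.104 to 0.214, differences -0.39 to -0.293), with median-ratio scaling (0.0657) and with all genes above 0 tested (0.0614). The difference in E2-KO was -0.20 (limma-trend adjusted p = 0.199). Tested directly, E3-KO differed from E2-KO by -0.46 (limma-trend adjusted p = 0.0272). This was lost without either library of E1-KO or WT, E2-KO replicate 1 or E3-KO replicate 2 (adjusted p 0.0534 to 0.11, differences -0.464 to -0.334). E3-KO and E1-KO differed by -0.32 (0.0674).

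Mycl, known from neural and dendritic cells, was at 8.26 and 6.91 FPKM in WT, at 6.07 and 6.72 in E1-KO, at 5.94 and 6.64 in E2-KO and at 8.42 and 9.42 in E3-KO. None of its differences from WT passed (-0.21, -0.23 and 0.21, limma-trend adjusted p = 0.244, 0.205 and 0.23), although quantile normalization called it in E3-KO (0.441, 0.0328). It was higher in E3-KO than in E1-KO by 0.42 (limma-trend adjusted p = 0.0471). That call was lost without any 1 library of E1-KO, E3-KO or WT (adjusted p 0.0643 to 0.225, differences 0.35 to 0.495) and with all genes above 0 tested (0.0779). The difference of 0.44 from E2-KO did not pass (0.0562).

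The summed level of Myc, Mycn and Mycl was 51.6 and 53.1 FPKM in WT, 47.6 FPKM in both samples of E1-KO, 55.4 and 47.3 FPKM in those of E2-KO, and 42.2 and 37 FPKM in those of E3-KO. Both E1-KO and both E3-KO samples were below both WT samples, while those of E2-KO lay on either side of them. Myc made up 2.7% ± 0.182 (SD, n = 2) of that sum in WT, and 15.2% ± 0.336, 14.3% ± 4.88 and 9.16% ± 1.19 in E1-KO, E2-KO and E3-KO. Mycn still held the largest share in every group, from 82.8% ± 2.31 in WT to 68.2% ± 2.69 in E3-KO. The ratio of Mycn to Myc went from 28.6 and 32.8 in the WT samples to between 4.04 and 7.97 in the 6 knockout samples. These shares are descriptions and were not tested.

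**Figure D2:**
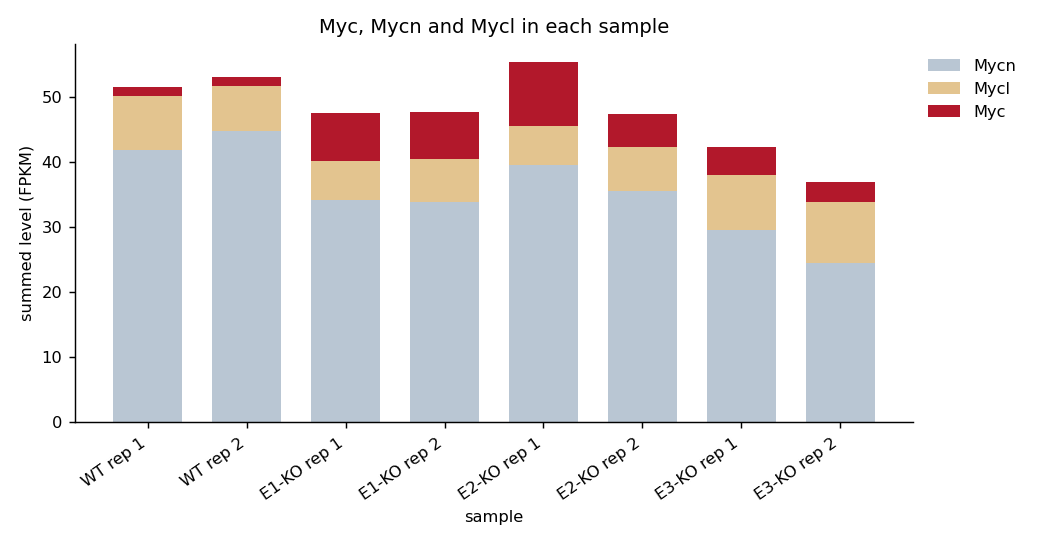
Stacked level in FPKM (y axis, from 0) of Mycn, Mycl and Myc in each of the 8 samples (x axis, 2 replicates per group). Myc is a thin band in WT (1.37 and 1.46 FPKM) and a wider one in every knockout sample (3.08 to 9.81 FPKM), under totals of 37 to 55.4 FPKM.

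Max, the shared partner, was higher in E1-KO and E3-KO. It was at 37.7 and 40.2 FPKM in WT, at 52.1 and 50.8 in E1-KO, at 40 and 42.6 in E2-KO and at 50.4 and 54 in E3-KO. The samples of E1-KO and E3-KO lay above all samples of WT and E2-KO, which overlapped each other. Max rose by 0.39 in E1-KO (standard error 0.09, limma-trend adjusted p = 0.0109) and by 0.41 in E3-KO (0.00709). In E2-KO the difference was 0.08 (limma-trend adjusted p = 0.517, 95% confidence interval -0.129 to 0.293). The call in E1-KO was lost without any 1 library of E1-KO or WT (adjusted p 0.0507 to 0.0874, differences 0.349 to 0.437), and that in E3-KO without WT replicate 1 (0.369, 0.0626). E3-KO exceeded E2-KO in Max by 0.33 (limma-trend adjusted p = 0.0436), which was lost without any 1 of the 8 libraries (0.0521 to 0.136, differences 0.282 to 0.38).

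Among the MXD genes, which encode antagonists of MYC, Mxd1 was lower in every knockout. It was at 2.53 and 2.7 FPKM in WT, at 1.51 and 1.31 in E1-KO, at 1.56 and 1.45 in E2-KO and at 1.5 and 1.32 in E3-KO. No knockout sample reached either WT sample, and the 3 knockouts overlapped each other. Mxd1 fell by 0.58 in E1-KO (standard error 0.14, limma-trend adjusted p = 0.0125), by 0.53 in E2-KO (0.0203) and by 0.58 in E3-KO (0.01), changes of -45.9%, -42.2% and -46% in the mean FPKM. These calls were lost without E1-KO replicate 2 (-0.522, limma-trend adjusted p = 0.073), WT replicate 1 (-0.617, 0.055) or WT replicate 2 (-0.549, 0.0832) in E1-KO, and without any 1 library of E2-KO or WT in E2-KO (0.0531 to 0.116, differences -0.559 to -0.491). In E3-KO the call was lost without WT replicate 2 (-0.55, 0.069).

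Mxd1 lies on chromosome 6, whose 535 tested genes had a median difference from WT of -0.617 in E3-KO, against -0.133 for the other genes. In E1-KO and E2-KO the medians of chromosome 6 were -0.046 and -0.073. With chromosome 6 genes centred on their own median in each sample, Mxd1 differed from WT by 0.03 in E3-KO (limma-trend adjusted p = 0.865), and it was then above E1-KO by 0.57 (0.0181) and above E2-KO by 0.48 (0.0527). With a pseudocount of 0.1, which suits so low a gene better and was added after the values had been seen, the centred difference from WT was -0.16 (0.565), and those from E1-KO (0.64, 0.0572) and E2-KO (0.52, 0.138) did not pass either.

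Mxd3 was at 3.34 and 4.1 FPKM in WT, at 4.65 and 4.38 in E1-KO, at 4.66 and 4.2 in E2-KO and at 3.65 and 3.95 in E3-KO, and none of its differences passed. Mxi1, at 6.85 and 7.69 FPKM in WT, was between 5.59 and 6.57 FPKM in the 6 knockout samples, all below WT. Its differences of -0.28, -0.20 and -0.17 did not pass (limma-trend adjusted p = 0.0996, 0.237 and 0.283), and the last turned to 0.061 with quantile normalization. Mxd4 was the lowest member, at 0.78 and 0.919 FPKM in WT, at 1.07 and 0.875 in E1-KO, at 0.799 and 1.01 in E2-KO and at 2.26 and 1.49 in E3-KO. Both E3-KO samples were above all others, with a rise over WT of 0.62 (standard error 0.18, limma-trend adjusted p = 0.0194). Its mean over the other groups was 0.9076 FPKM, so it passed the minimum of 1 FPKM only through E3-KO and had to differ there. The call was lost without E3-KO replicate 1 (0.431, 0.109), WT replicate 1 (0.569, 0.1) or WT replicate 2 (0.678, 0.0655). Exons of Mxd3, Mxd4 and Mxi1 overlap those of Prelid1, Gm42846 and Gm10197 on the opposite strand (105, 514 and 194 bases in the GENCODE annotation), and whether strand was used in counting is not given in the sources used here, so reads of such pairs cannot be told apart.

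Mnt, the broadly expressed MAX partner that represses E-box genes, separated E3-KO from the other knockouts. It was at 20.5 and 17.9 FPKM in WT, at 14.7 and 14.3 in E1-KO, at 14.9 and 16.9 in E2-KO and at 21.8 and 22.5 in E3-KO. E3-KO lay above every other sample, and E1-KO below every other sample. Mnt was higher in E3-KO than in E1-KO by 0.58 (standard error 0.11, limma-trend adjusted p = 0.00607), and leaving out any 1 library kept this call (0.558 to 0.596). E3-KO exceeded E2-KO in Mnt by 0.46 (limma-trend adjusted p = 0.0262), which was lost without either library of E1-KO or E3-KO or E2-KO replicate 1 (0.0515 to 0.107, differences 0.374 to 0.475). Against WT, Mnt fell by 0.38 in E1-KO (limma-trend adjusted p = 0.0257), a call lost without any 1 library of E1-KO or WT (0.0546 to 0.179, differences -0.472 to -0.288), with quantile normalization (0.0928) and with median-ratio scaling (0.0625). In E3-KO it was 0.20 above WT (0.179), and both of those scalings called that difference (0.388 and 0.362, adjusted p = 0.0261 and 0.0347). They moved the median of all tested genes in E3-KO from -0.151 to -0.008 and 0.003.

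Mga had the highest level of the 10 genes in every sample. It was at 122 and 115 FPKM in WT, at 93.3 and 84.2 in E1-KO, at 79.4 and 71.8 in E2-KO and at 72.2 and 79.2 in E3-KO. No knockout sample reached the WT range, and E2-KO and E3-KO overlapped each other. Mga fell by 0.41 in E1-KO (standard error 0.10, limma-trend adjusted p = 0.0137), by 0.64 in E2-KO (0.00214) and by 0.64 in E3-KO (0.0015). Leaving out any 1 library kept the calls in E2-KO (-0.714 to -0.572) and E3-KO (-0.707 to -0.574). In E1-KO the call was lost without E1-KO replicate 2 (-0.341, 0.109), WT replicate 1 (-0.374, 0.0953) or WT replicate 2 (-0.454, 0.0615). None of the differences of Mga between knockouts passed.

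**Figure D3:**
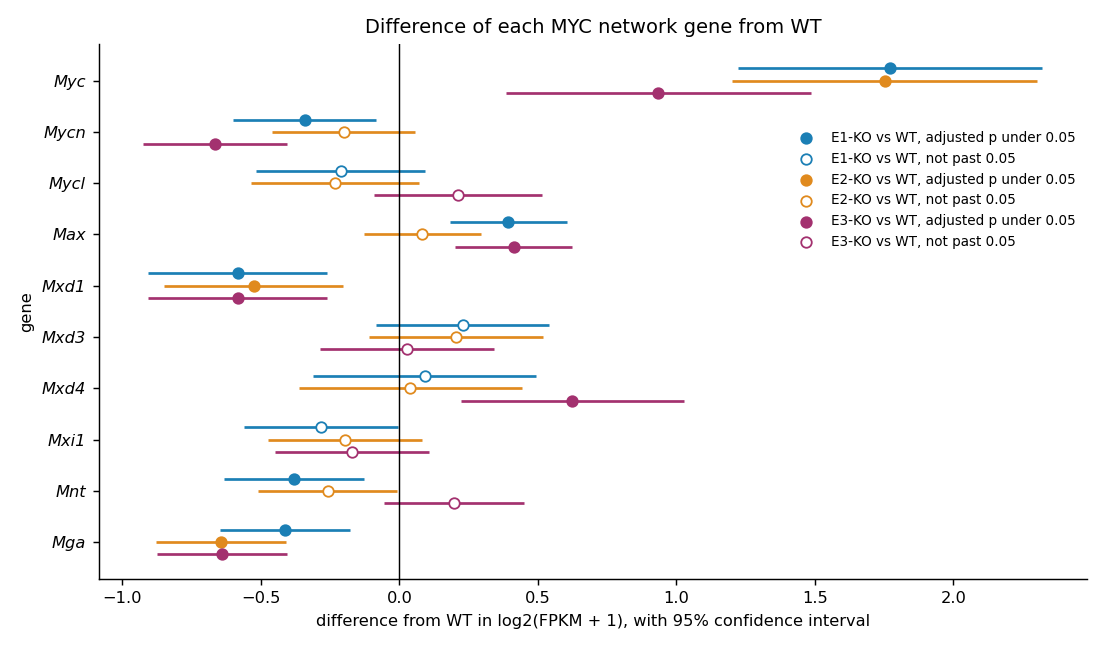
Difference from WT in log2(FPKM + 1) (x axis) of the 10 MYC network genes (y axis) in E1-KO, E2-KO and E3-KO. Lines are 95% confidence intervals of the limma-trend fit, filled points passed an adjusted p under 0.05 and open points did not. Myc stands farthest to the right at 1.77, 1.75 and 0.94, and Mga, Mycn, Mxd1 and Mxi1 to the left of 0 in each knockout.

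Counted together, 6 of the 10 members were called in E1-KO against WT (2 higher and 4 lower), beside 38.0% of all tested genes (15.0% higher and 23.0% lower). With E2 deleted 3 were called, Myc higher and Mga and Mxd1 lower, beside 36.1% of all tested genes (14.2% higher and 21.9% lower). For E3-KO 6 were called, 3 higher and 3 lower, beside 44.7% (13.9% higher and 30.8% lower), and of the 3 higher Mxd4 was tested only because of its level in E3-KO. Of the 3 lower, Mxd1 lies on chromosome 6. With that chromosome centred, Mxd1 differed by 0.03, or by -0.16 with a pseudocount of 0.1, and was not called. The median difference of the 10 members was -0.247, -0.199 and 0.113, beside -0.062, -0.076 and -0.151 for all tested genes. The count in E1-KO was 3 without E1-KO replicate 1 and 1 without E1-KO replicate 2, WT replicate 1 or WT replicate 2. That in E3-KO was 3 without either WT replicate. Between knockouts, 3 members were called for E3-KO against E1-KO (Myc lower, Mycl and Mnt higher), beside 25.8% of all tested genes (9.41% higher, 16.4% lower), and 1 remained called without any single library of E1-KO or WT. For E3-KO against E2-KO 3 were called (Mycn lower, Max and Mnt higher), beside 15.6% (5.48% higher, 10.1% lower). This count fell without any single library of E1-KO, E3-KO or WT, and without E2-KO replicate 1. Without E3-KO replicate 2, Mycn (-0.334), Max (0.282) and Mnt (0.437) were no longer called, and Mxd4 (0.777) was. As said, Mxd4 was tested only because of its level in E3-KO. For E2-KO against E1-KO limma-trend called none, beside 0.834% of all tested genes, and 1 member (Max, -0.31) had an unadjusted p-value under 0.05.

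Levels were also read for genes that work with the network, from lists drawn up with earlier results of these data known. Of 30 tested MYC target genes, 13 were higher and 2 lower in E1-KO, 15 higher and 1 lower in E2-KO, and 9 higher and 3 lower in E3-KO, with medians of 0.407, 0.382 and 0.182. Over all tested genes 15.0%, 14.2% and 13.9% were higher and 23.0%, 21.9% and 30.8% lower, with medians of -0.062, -0.076 and -0.151. Srm, which makes spermidine, was at 71.8 and 81 FPKM in WT, at 145 and 134 in E1-KO, at 156 and 159 in E2-KO and at 108 and 117 in E3-KO, with all 6 knockout samples above WT. It rose by 0.86, by 1.04 and by 0.56 (limma-trend adjusted p = 0.000492, 0.000289 and 0.0026), and no left-out library ended these calls. Ncl, which encodes the nucleolar protein nucleolin, rose from 477.9 ± 16.5 FPKM (SD, n = 2) to 909 ± 63.6, 813.1 ± 255 and 777 ± 119. Its calls were lost without E1-KO replicate 1 or WT replicate 2 in E1-KO (limma-trend adjusted p = 0.0616 and 0.0597), and in E2-KO and E3-KO without either WT replicate, E2-KO replicate 1 (0.0914) or E3-KO replicate 2 (0.117). With quantile normalization the difference in E2-KO was 0.48 (0.0803). Nop56, a core protein of small nucleolar ribonucleoproteins, was higher in E2-KO (1.37, limma-trend adjusted p = 0.0123), with samples at 1160 and 541 FPKM, and this was lost without E2-KO replicate 1 (0.824, 0.0546) or WT replicate 1 (1.163, 0.086). Rcc1, a nucleotide exchange factor of Ran, fell by 1.52 in E1-KO (limma-trend adjusted p = 0.015), which was lost without either E1-KO replicate, WT replicate 2 (0.0527 to 0.0964) or with all genes above 0 tested (0.0531). Nop56, Rcc1 and Ncl were all higher in E2-KO replicate 1 than in replicate 2 (1160 and 541, 1210 and 449, and 993 and 633 FPKM). Whether other genes lie within these targets was not examined, so reads of such genes cannot be told apart. The other targets called lower, named after their values were seen, were Cad, an enzyme of pyrimidine synthesis, in each knockout (-0.895, -0.729 and -0.866), and in E3-KO Nop2 (-0.414), a nucleolar protein called higher in E1-KO and E2-KO, and the transferrin receptor gene Tfrc (-0.418). The numbers of higher targets in E1-KO were 6 without E1-KO replicate 1 or WT replicate 1 and 8 without WT replicate 2. In E2-KO they were 7 without E2-KO replicate 1 or WT replicate 2 and 6 without WT replicate 1, and for E3-KO 3, 5 and 6 without WT replicate 1, WT replicate 2 and E3-KO replicate 2, and 14 with median-ratio scaling. Without a single other library they reached up to 18, 19 and 12.

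Of 5 tested genes listed as repressed by MYC, in part with the partner MIZ1, 3 were lower in each knockout, beside 23.0%, 21.9% and 30.8% of all tested genes. The medians were -0.548, -0.475 and -0.78. Cdkn1a, the cell cycle inhibitor p21, was at 117 and 130 FPKM in WT, at 49.8 and 50 in E1-KO, at 42.2 and 53.8 in E2-KO and at 82.1 and 62.3 in E3-KO. It fell in each, with differences of -1.29, -1.36 and -0.78 (limma-trend adjusted p = 0.00049, 0.000452 and 0.00358), and no left-out library ended these calls. Ndrg1, a stress-induced gene, fell by 0.98 in E2-KO (limma-trend adjusted p = 0.0194), which was lost without E2-KO replicate 1 (-0.64, 0.119), WT replicate 1 (-0.875, 0.107) or WT replicate 2 (-1.088, 0.0629). Gadd45a, a growth arrest gene, fell by 0.87 in E1-KO (limma-trend adjusted p = 0.00868, lost without E1-KO replicate 1 or WT replicate 2, 0.0568 and 0.0639) and by 0.88 in E3-KO (0.00635). Cdkn1b, which encodes the cell cycle inhibitor p27, fell by 0.97 in E3-KO (0.000893). Gadd45a and Cdkn1b lie on chromosome 6, with its median of -0.617 in E3-KO. The remaining genes of the list were at -0.78 (Cdkn1a), -0.238 (Ndrg1) and -0.225 (Cdkn2b) in E3-KO. The counts of lower genes were 1 without WT replicate 2 in E1-KO, and 1 without E2-KO replicate 1 or either WT replicate in E2-KO.

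Enzymes that control the stability of MYC proteins moved in both directions. Of 10 tested, 2 were higher and 2 lower in E1-KO, 1 higher and 3 lower in E2-KO, and 2 higher and 3 lower in E3-KO, beside 38.0%, 36.1% and 44.7% of all tested genes called in either direction. Usp28, a deubiquitinase that counters the ubiquitin ligase FBXW7 on MYC, went from 34.9 and 33.9 FPKM in WT to between 11.9 and 16.7 FPKM in the 6 knockout samples. It fell in each knockout, with differences of -1.21, -1.07 and -1.25 (limma-trend adjusted p = 0.000444, 0.000805 and 0.000251). Aurka, a mitotic kinase that stabilizes MYCN protein, was at 68.4 and 69.3 FPKM in WT and between 99.7 and 117 FPKM in the knockouts. It rose by 0.71, 0.57 and 0.61 (limma-trend adjusted p = 0.000725, 0.00211 and 0.0011). No left-out library ended the calls of Usp28 or Aurka. Gsk3b, a kinase that marks MYC for decay and a target of the inhibitor in the medium, fell by 0.48 in E1-KO (limma-trend adjusted p = 0.0121, lost without E1-KO replicate 1 or either WT replicate, 0.0609 to 0.108). It also fell by 0.36 in E2-KO (0.0423), which was lost with quantile normalization (0.0899), median-ratio scaling (0.0879) and all genes above 0 tested (0.0611), and without E2-KO replicate 2 or either WT replicate (0.141 to 0.175). Huwe1, a large ubiquitin ligase, fell by 0.49 in E2-KO (0.00865, lost without either WT replicate, 0.0543 and 0.0611) and by 0.35 in E3-KO (0.0265). The latter was lost without E3-KO replicate 1 or either WT replicate (0.109 to 0.121) and with median-ratio scaling (-0.182, 0.234) or scaling without the 50 highest genes (-0.293, 0.0756).

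Of 14 cofactors of MYC, 3 were higher and 3 lower in E1-KO, 1 was higher in E2-KO, and 1 was higher and 4 were lower in E3-KO. Over all tested genes 38.0%, 36.1% and 44.7% were called. Wdr5, a chromatin protein that anchors MYC, fell by 0.73 in E1-KO (limma-trend adjusted p = 0.00138) and by 0.58 in E3-KO (0.00306). Ruvbl1, a helicase-related ATPase of chromatin complexes, rose by 0.61 in E1-KO (limma-trend adjusted p = 0.013, lost without any 1 library of E1-KO or WT, 0.0536 to 0.0791) and by 0.64 in E2-KO (0.0111, lost without either WT replicate, 0.0598 and 0.0653). It lies on chromosome 6, and its difference was -0.32 in E3-KO (0.117). Zbtb17, which encodes MIZ1, fell by 0.49 in E3-KO (limma-trend adjusted p = 0.0117), a call lost with quantile normalization (0.0957), with median-ratio scaling (0.0566) and without WT replicate 1 (0.0865). In E1-KO it fell by 0.37 (0.0439), which any 1 left-out library of E1-KO or WT ended (0.104 to 0.219), as did quantile normalization (-0.244, 0.151) and median-ratio scaling (-0.302, 0.0806). Bptf, a subunit of a chromatin remodeller, rose by 0.48 in E3-KO (0.0332, lost without E3-KO replicate 2 or either WT replicate, 0.0971 to 0.188). Of the MLX branch, which pairs with MLX in place of MAX, 1 of 3 genes was called. Mlxipl, a glucose-responsive factor, fell by 0.68 in E2-KO (limma-trend adjusted p = 0.0263, lost with quantile normalization, 0.0653, and without E2-KO replicate 1 or either WT replicate, 0.107 to 0.154).

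Of 9 corepressor genes of MXD and MNT, 1 was higher and 3 lower in E1-KO, and 1 was higher in E3-KO, where 38.0% and 44.7% of all tested genes were called. In E2-KO, with 36.1% of all tested genes called, limma-trend called none of them, and 1 had an unadjusted p-value under 0.05. Sin3b, a scaffold that MXD proteins bind, fell by 0.65 in E1-KO (limma-trend adjusted p = 0.00513, lost without WT replicate 2, 0.0535). Rbbp4 and Rbbp7, histone-binding subunits, fell by 0.48 and by 0.36 in E1-KO (0.0235 and 0.0296), and either call was lost without any 1 library of E1-KO or WT (0.0668 to 0.173). The deacetylase gene Hdac2 rose by 0.38 in E3-KO (0.0282, lost without E3-KO replicate 2 or either WT replicate, 0.0864 to 0.144).

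**Figure D4:**
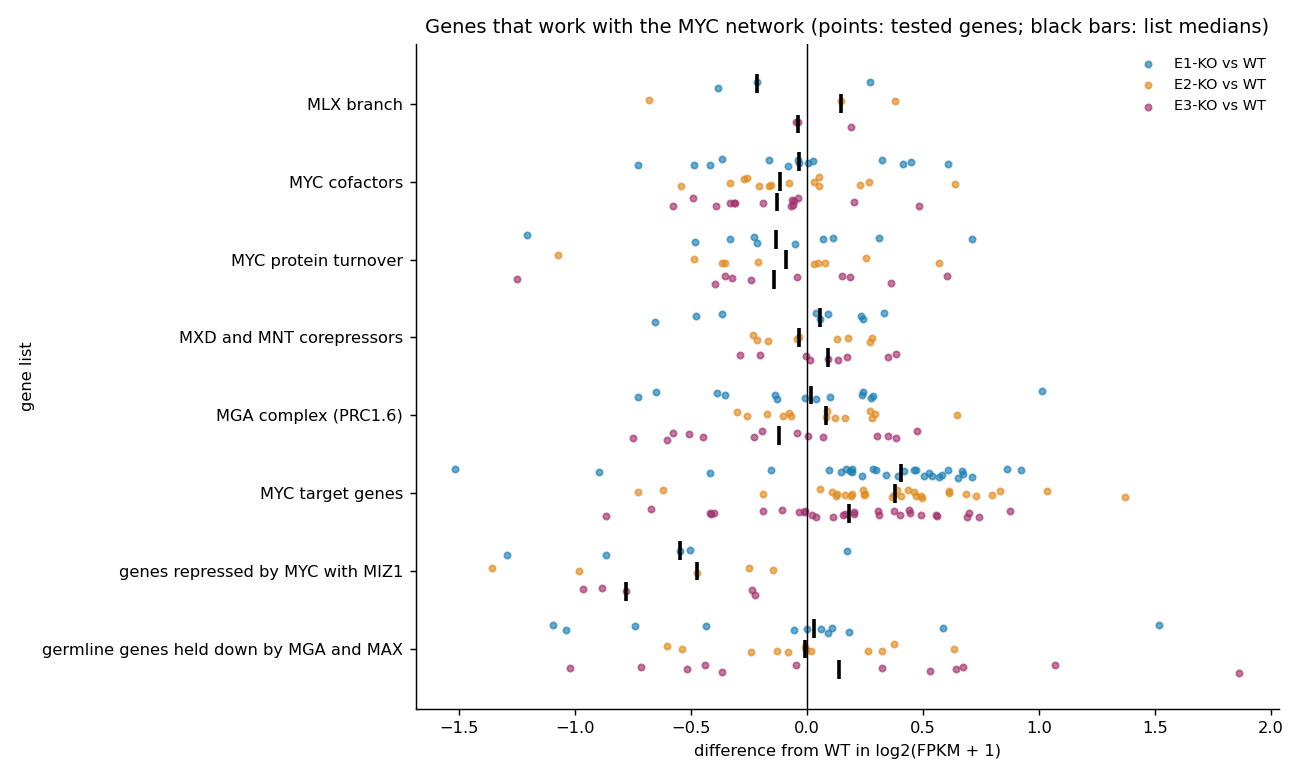
Difference from WT in log2(FPKM + 1) (x axis) of the tested genes of 8 lists that work with the MYC network (y axis), in E1-KO, E2-KO and E3-KO. Points are genes, shifted slightly up or down to separate them, and black bars are list medians. The medians of the MYC targets stand at 0.407, 0.382 and 0.182 and those of the genes listed as repressed by MYC with MIZ1 at -0.548, -0.475 and -0.78. Of the latter genes, Cdkn1b (-0.965 in E3-KO) and Gadd45a (-0.883) lie on chromosome 6, whose median in E3-KO was -0.617.

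Of 14 tested partners of MGA in its polycomb complex, 1 was higher and 2 lower in E1-KO, 1 was higher in E2-KO, and 2 were higher and 5 lower in E3-KO, beside 38.0%, 36.1% and 44.7% of all tested genes called in either direction. Wdr5 of the MYC cofactors, and Hdac1 and Hdac2 of the corepressors, are in this list too. The calls of Wdr5 (lower in E1-KO and E3-KO) and Hdac2 (higher in E3-KO) are thus counted in both places. Cbx1, a chromobox protein, rose by 1.02 in E1-KO (limma-trend adjusted p = 0.00211), from 68.83 ± 4.74 FPKM in WT to 139.9 ± 2.86 (SD, n = 2 each). It also rose by 0.65 in E2-KO (0.0164, lost without E2-KO replicate 1 or either WT replicate, 0.0542 to 0.106) and by 0.47 in E3-KO (0.0452, lost without either E1-KO or WT replicate or E3-KO replicate 2, 0.0694 to 0.23). Cbx3, of the same family and on chromosome 6, fell by 0.75 in E3-KO (0.000613). Tfdp2, a dimer partner of E2F factors, fell by 0.65 in E1-KO (0.00357). Germline genes that MGA and MAX are known to hold down went both ways. Of 12 tested, 2 were higher and 4 lower in E1-KO, 1 higher and 2 lower in E2-KO, and 4 higher and 3 lower in E3-KO, with medians of 0.031, -0.006 and 0.139. Over all tested genes 15.0% were higher and 23.0% lower in E1-KO, 14.2% and 21.9% with E2 deleted, and 13.9% and 30.8% with E3 deleted, with medians of -0.062, -0.076 and -0.151. Dazl, a germ cell RNA-binding protein, fell by 1.09 in E1-KO (limma-trend adjusted p = 0.00251) and by 0.72 in E3-KO (0.0135, lost without E3-KO replicate 2 or either WT replicate, 0.0613 to 0.084). In E2-KO it fell by 0.60 (0.0336), which any 1 left-out library of E2-KO or WT ended (0.0954 to 0.132). Stra8, a gate to meiosis, rose by 1.52 in E1-KO (0.000827), from 3.592 ± 0.192 FPKM to 12.19 ± 1.03. It lies on chromosome 6, and its difference was 0.53 in E3-KO (limma-trend adjusted p = 0.0597). In E2-KO it rose by 0.63 (0.037), which was lost without either E1-KO or WT replicate or E2-KO replicate 2 (0.0554 to 0.185) and with scaling without the 50 highest genes (0.0623). Tex101, a surface protein of germ cells, rose by 1.87 in E3-KO (limma-trend adjusted p = 0.00263), where its samples were at 18.4 and 6.86 FPKM against 2.31 and 2.46 in WT. In E1-KO it fell by 1.04 (0.04), to 0.518 and 0.79 FPKM, a call lost without any 1 library of the E1-KO, E2-KO or WT groups (0.0511 to 0.169). Zcwpw1, a reader of histone marks in meiosis, rose by 1.07 in E3-KO (0.0019), from 5.46 and 5.66 FPKM in WT to 12.8 FPKM in both samples. It rose by 0.59 in E1-KO (0.0319), which any 1 left-out library of E1-KO or WT ended (0.06 to 0.18). With all genes above 0 tested, limma-trend lost the calls of Ncl in E2-KO and E3-KO, Ndrg1 and Mlxipl in E2-KO, Rbbp4 and Zbtb17 in E1-KO, Bptf and Cbx1 in E3-KO, Dazl and Stra8 in E2-KO, and Tex101 and Zcwpw1 in E1-KO (adjusted p 0.0506 to 0.103).

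For the 3 MYC genes, the genes with the most similar course over the 8 samples were sought among those whose group means spanned at least 1 on the log2(FPKM + 1) scale (1709 candidates for Myc and 1710 for the others). The points share their groups and libraries, so the correlations are descriptions. Nearest to Myc were 9330159F19Rik (Pearson's r = 0.992), Eras (0.989), a Ras-like gene of embryonic stem cells, and Inhbb (0.986), which encodes an activin subunit. Eras was at 2.22 and 2.02 FPKM in WT, at 10.8 and 9.84 in E1-KO, at 15.5 and 9.41 in E2-KO and at 5.61 and 4.99 in E3-KO. Nearest to Mycn were Ndufb2 (0.992), Gm364 (0.982) and Edem1 (0.975), of which Ndufb2 and Edem1 lie on chromosome 6. Nearest to Mycl were Rnf213 (0.953), Sfmbt2 (0.939) and 1700019A02Rik (0.933), all highest in E3-KO.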

How the data were processed

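Total RNA libraries of 8 samples in 4 groups were analysed. The authors deposited 1 table of gene identifiers and FPKM values per sample. The submitters' processing notes name Trimmomatic 0.36, TopHat2 2.0.12, Cufflinks 2.2.1 and mm9, and the unit was inferred from Cufflinks and the values. The annotation, the use of strand and any normalization between samples are not given in the sources used here. Samples were grouped by title.

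Each table held 18774 rows with 17812 identifiers. Of 660 repeated identifiers, 575 were resolved by file position and 85 were left out. Symbols matched 17262 identifiers. Genes averaging 1 FPKM or more were tested on log2(FPKM + 1) with limma-trend (limma 3.58.1, R 4.3.3), all 8 samples in the fit, group as the only term and 4 residual degrees of freedom. The fit was tested on simulated data. Figures were drawn with matplotlib 3.10.9.

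The members and gene lists were chosen with earlier results of these data known. All 10 members are named, and up to 4 genes per list with the largest called change against WT whose samples lay on 1 side of WT. Samples with the same replicate number did not deviate together (mean correlation 0.005, -0.042 to 0.09 over the pairs of groups). The alternatives were the replicate block, 3 other scalings, a pseudocount of 0.1, other filters, summed rows and each library left out.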

Additional observations from a re-analysis of the deposited data

Results flagged for a closer look

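Of the differences of network members between knockouts, 6 passed the direct test of one knockout's samples against another's. For E3-KO against E1-KO, with 25.8% of all tested genes called, these were Myc (-0.836 on the log2 scale, limma-trend adjusted p = 0.0341), Mycl (0.423, 0.0471) and Mnt (0.577, 0.00607). For E3-KO against E2-KO, with 15.6% of all tested genes called, they were Mycn (-0.464, limma-trend adjusted p = 0.0272), Max (0.331, 0.0436) and Mnt (0.456, 0.0262). Only Mnt for E3-KO against E1-KO kept its call whichever library was left out (0.558 to 0.596). Each knockout is a group of its own, so clone, culture and library cannot be told apart from the enhancer.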

How the results depend on the processing

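Leaving out 1 library at a time gave 2041 to 4673 called genes for E1-KO against WT, 1871 to 4452 for E2-KO against WT, 2829 to 5340 for E3-KO against WT, 2 to 261 for E2-KO against E1-KO, 1306 to 3274 for E3-KO against E1-KO, 974 to 1546 for E3-KO against E2-KO and 3560 to 6521 for any difference among the groups. The counts of called members ran from 1 to 6, 2 to 3, 3 to 6, 0 to 0, 1 to 3 and 0 to 3 in the same order of comparisons. The cause was not tested. With 2 samples per group and unknown depth, the 4 residual degrees of freedom limit the precision of every test.

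With the replicate number as a block, which does not pair these samples, 5, 3 and 6 members were called against WT, and the genes called for E2-KO against E1-KO went from 94 to 31. Among the members, the block ended the calls of Mycn in E1-KO (limma-trend adjusted p = 0.0503), Mycl for E3-KO against E1-KO (0.0645) and Max for E3-KO against E2-KO (0.0575), and called Myc for E3-KO against E2-KO (0.0379).

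With all genes above 0 tested, 1 gene was called for E2-KO against E1-KO and 1 member for E3-KO against E1-KO. A mean of at least 5 FPKM gave 58 genes for E2-KO against E1-KO and 1 and 3 members for E2-KO and E3-KO against WT, and left Myc, Mxd1, Mxd3 and Mxd4 untested. For E3-KO against E2-KO, 5 members were called with quantile normalization, with median-ratio scaling and with scaling without the 50 highest genes. The members added in each were Mycl and Mxd4. Mxd4 was tested only because of its level in E3-KO, so its call there was built in. Of all tested genes, these scalings called 843 higher and 836 lower, 879 and 817, and 900 and 710, beside 618 and 1135 in the main fit. Median-ratio scaling split the calls against WT into 2061 higher and 2169 lower, 2003 and 1966, and 2360 and 2368, beside 1695 and 2589, 1596 and 2474, and 1568 and 3470.

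Differences that changed sign were not called unless stated in the report. Quantile normalization gave 0.010 for Mxd1 in E3-KO against E1-KO, -0.001 for Mxd4 in E2-KO and 0.061 for Mxi1 in E3-KO. For Mxd1, median-ratio scaling gave 0.060 against E1-KO, and scaling without the 50 highest genes 0.044 against E1-KO and 0.010 against E2-KO. Mxd1 in E3-KO with chromosome 6 centred was 0.032 against WT, 0.569 against E1-KO and 0.484 against E2-KO, and with a pseudocount of 0.1 as well it was 0.637 and 0.517 against the knockouts (limma-trend adjusted p = 0.0572 and 0.138). With 1 library left out, differences of E2-KO from E1-KO ran from -0.43 to 0.392 for Myc, -0.09 to 0.048 for Mycl, -0.004 to 0.119 for Mxd1, -0.083 to 0.038 for Mxd3 and -0.129 to 0.028 for Mxd4. Those of E3-KO from E1-KO ran from -0.029 to 0.069 for Max and -0.062 to 0.06 for Mxd1, and those from E2-KO from -0.021 to 0.071 for Mxi1 and -0.069 to 0.073 for Mga. Against WT, Mxd4 in E2-KO ran from -0.038 to 0.119 and Mxd3 in E3-KO from -0.089 to 0.145.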

Other observations

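The level of Max relative to its partners was higher in the knockouts. Per 100 FPKM of all 9 MAX partners together, Max was at 18.2 and 19.9 FPKM in WT, at 30.9 and 32 in E1-KO, at 24.6 and 28.6 in E2-KO and at 33.7 and 35.5 in E3-KO. The partners summed to 207 and 202 FPKM in WT and to between 149 and 168 FPKM in the 6 knockout samples. Mga alone made up 57.9% ± 1.15 (SD, n = 2) of that sum in WT, and 54.2% ± 1.66, 48.5% ± 0.419 and 50.2% ± 2.77 in E1-KO, E2-KO and E3-KO. The antagonists Mxd1, Mxd3, Mxd4, Mxi1 and Mnt together were at 33.7 ± 0.476 FPKM in WT, and 27.2 ± 0.479, 28.9 ± 1.4 and 35.6 ± 0.318 FPKM in E1-KO, E2-KO and E3-KO (SD, n = 2 each), with the sums of E1-KO and E2-KO below both WT samples and those of E3-KO above them. These sums were not tested.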
